A study of Danio rerio with 15 samples.

Results

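The cardiac transcription factors described here are the products of 10 genes, tbx20, tbx5a, gata4, gata5, gata6, nkx2.5, nkx2.7, hand2, mef2ca and mef2cb. They were chosen by name, as the transcript cluster (the array's unit of about 1 gene) that carried that single symbol and, per gene, the highest mean. By this rule 9 of the 10 were found among the 19260 genes measured, each with 1 cluster, and gata6 was not analysed here. The study followed adult zebrafish made anaemic with phenylhydrazine, which breaks down red blood cells, and then allowed to recover without it.

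The 15 arrays fell into 5 groups of 3. Treated fish were bathed in phenylhydrazine for 30 min every 3 days over 5 weeks, first at 1.25 µg/mL (week 1) and then at 2.5 µg/mL, and were sampled at the end of treatment or 2, 5 or 9 days later. Control fish went through the same baths without the compound. Each array held total RNA (250 ng) of 3 pooled ventricles, so fish are not resolved within an array. The sources used here do not give strain, age or sex, and the labels give the controls no sampling day, so recovery and sampling day cannot be told apart. No batch or scan date was given either.

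Heart muscle forms and is maintained under a small set of transcription factors that bind DNA side by side and often bind each other. The T-box proteins, the zinc finger GATA proteins, the homeodomain NK2 proteins, the basic helix-loop-helix protein Hand2 and the MADS-box protein Mef2c share many target genes, among them those of the contractile fibres and of the natriuretic peptides. In the zebrafish embryo they are needed for the heart to form, and in the adult several of them are also made in endocardium, epicardium or fibroblasts.

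Values are the authors' log2 expression values, and every difference is a log2 difference ± SE, estimated with limma from 3 arrays in each group. The words rose and fell are used where the Benjamini-Hochberg adjusted p over all 19260 genes was under 0.05. An exact permutation of 3 against 3 arrays cannot go below p = 0.1, and the calls use the variance that limma shares among genes. The 4 comparisons with control share the same 3 control arrays. Signals of different clusters are not comparable as expression levels, so changes are read only against the same gene in other groups. Where a control mean is set beside those of other genes, it describes signal on the array and not expression level. In bulk tissue, fewer cells of a type and less RNA per cell cannot be told apart.

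The arrays carried strong heart muscle signal, with control means of 13.39 for the myosin light chain gene myl7 and 12.73 for the troponin gene tnnt2a. The median of an array ranged from 4.022 to 4.095. Of the members, 8 had control means between 8.50 and 12.39, and nkx2.7 was at 3.92, a dim signal.

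Of the 9 members 6 passed the moderated F test of limma over the 4 contrasts against control, and 26.9% of all genes did. They were tbx20, tbx5a, nkx2.5, hand2, mef2ca and mef2cb, while gata4, gata5 and nkx2.7 did not pass (adjusted p = 0.769, adjusted p = 0.0751 and adjusted p = 0.53 by limma). At the end of treatment 3 members were lower than in control and 1 was higher, against 9.6% and 14.6% of all genes. At 2 days 2 members were lower and 0 higher, with 4.15% and 7.62% of all genes. At 5 days limma called 0 members (2 at an unadjusted p under 0.05), against 6.37% of genes in either direction. At 9 days 1 was lower and 0 higher, with 3.3% and 4.24% of genes. In control every member but nkx2.7 had a mean above those of at least 88.6% of all genes. The shares over all genes include many dimmer genes and are not matched to the members in signal. Without the lowest-signal genes, 4703 of 12840 were called at the end of treatment, against 4669 of 19260.

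**Figure D1:**
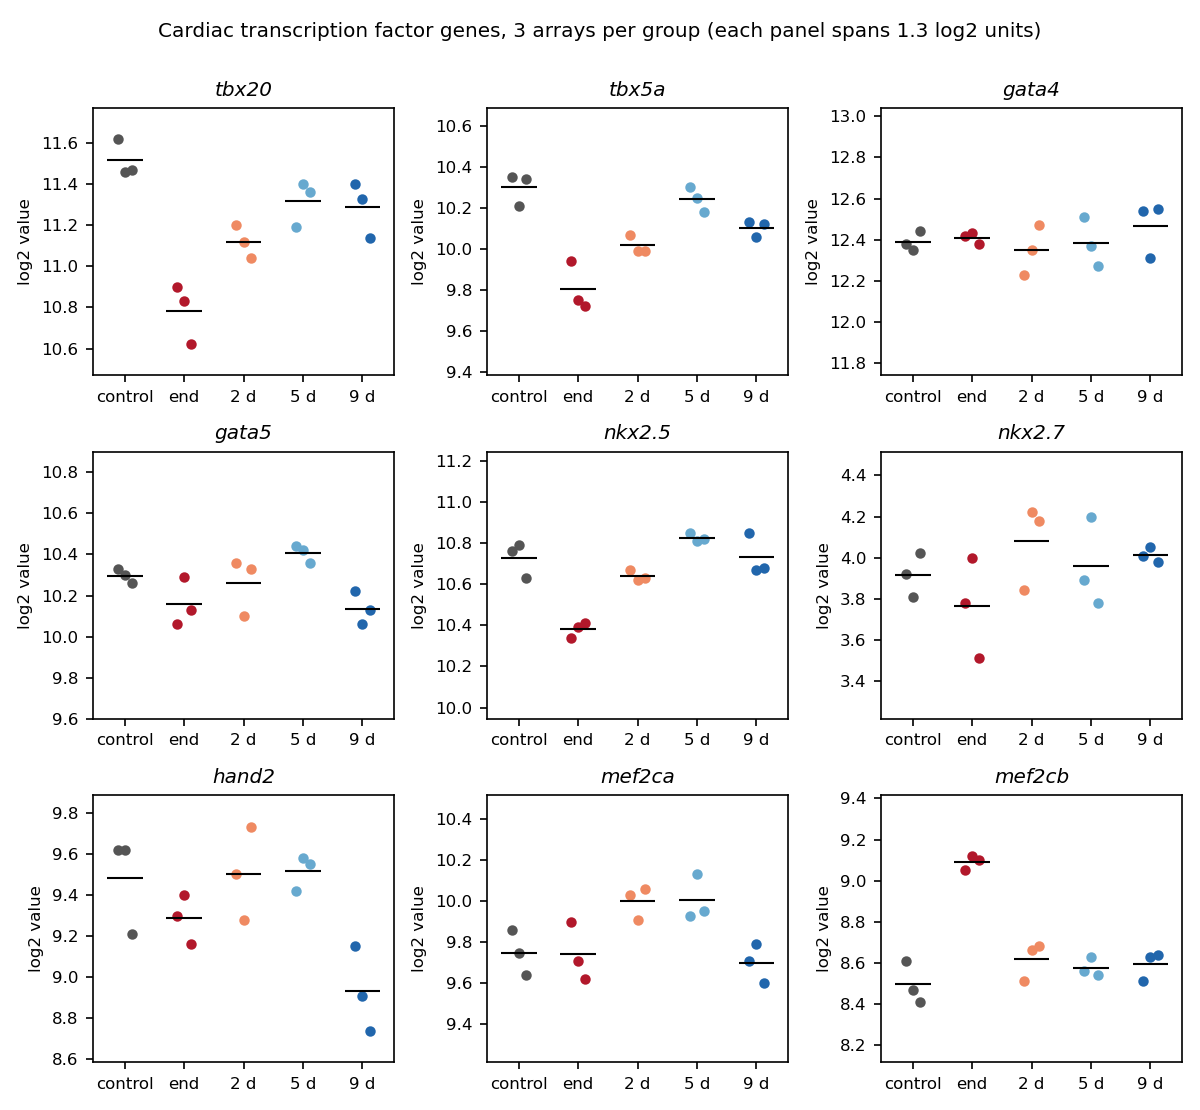
Log2 expression value (vertical axis) of each of the 9 genes on every array, by group (horizontal axis: control, end of treatment, then 2, 5 and 9 days); points are arrays and bars are means of 3 arrays. For tbx20 the 3 end of treatment arrays lie from 10.62 to 10.90 and the controls from 11.46 to 11.62, for mef2cb the end of treatment arrays lie above all others, and for hand2 the 9 day arrays lie below all others.

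The T-box gene tbx20 gave the largest fall among the members. The protein Tbx20 both activates and represses genes of heart muscle, and in mice the adult heart fails without it. The gene tbx20 (cluster 13041415) read 11.62, 11.46 and 11.47 on the control arrays and 10.90, 10.83 and 10.62 on those from the end of treatment. It then read 11.20, 11.12 and 11.04 at 2 days, 11.19, 11.40 and 11.36 at 5 days, and 11.40, 11.33 and 11.14 at 9 days. Every array of the treated and recovering groups thus lay below every control array, and the end of treatment arrays lay below all arrays of the later groups. The fall at the end of treatment was -0.73 ± 0.09 (adjusted p = 1.26e-05, 1.66-fold lower). At 2 days tbx20 was still lower, by -0.40 ± 0.09 (adjusted p = 0.00721). The differences of -0.20 ± 0.09 at 5 days and -0.22 ± 0.09 at 9 days did not pass (adjusted p = 0.218 and adjusted p = 0.147 by limma), with 95% intervals of -0.386 to -0.011 and -0.412 to -0.037. The groups ranked control, 5 days, 9 days, 2 days and end of treatment by mean. Values of 5 and 9 days overlapped, as did those of 9 and 2 days.

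Against the end of treatment, tbx20 was higher by 0.34 ± 0.09 at 2 days, 0.54 ± 0.09 at 5 days and 0.51 ± 0.09 at 9 days (adjusted p = 0.0245, adjusted p = 0.000682 and adjusted p = 0.00059 by limma). The call at 2 days was lost when end of treatment replicate 2 or 3 or 2 days replicate 1 or 2 was left out, with adjusted p between 0.0529 and 0.122. The calls at 5 and 9 days held with each array left out.

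Tbx5a, the protein of the heartstrings locus, is needed for the heart and the pectoral fins, and in humans loss of 1 copy of TBX5 causes heart septum and conduction defects. The gene tbx5a (cluster 13200977) read 10.35, 10.21 and 10.34 in the controls and 9.94, 9.75 and 9.72 at the end of treatment. It read 10.07, 9.99 and 9.99 at 2 days, 10.30, 10.25 and 10.18 at 5 days, and 10.13, 10.06 and 10.12 at 9 days. The end of treatment arrays were the lowest 3, the arrays of 5 days overlapped control, and those of 9 days lay between 5 days and the end of treatment. The gene fell by -0.50 ± 0.07 at the end of treatment (adjusted p = 7.21e-05) and by -0.28 ± 0.07 at 2 days (adjusted p = 0.0161). The 2 day call was lost without control replicate 1 or 3 or without 2 days replicate 2 or 3 (adjusted p between 0.0564 and 0.072). At 5 and 9 days the differences were -0.06 ± 0.07 and -0.19 ± 0.07, neither called (adjusted p = 0.736 and adjusted p = 0.119 by limma). Their 95% intervals were -0.208 to 0.096 and -0.346 to -0.042, and the 9 day arrays lay below all controls. Against the end of treatment tbx5a was higher at 5 days (0.44 ± 0.07, adjusted p = 0.00062) and 9 days (0.30 ± 0.07, adjusted p = 0.00656). The 2 day difference of 0.21 ± 0.07 did not pass (adjusted p = 0.0876), and passed only without end of treatment replicate 1 (adjusted p = 0.0303).

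Other T-box genes were read beside them. The paralogue tbx5b fell at the end of treatment and at 2 days, by -0.36 ± 0.06 and -0.23 ± 0.06, and at 9 days it differed by 0.00 ± 0.06. The repressor gene tbx3a, known for the conduction system, fell by -0.56 ± 0.16 at the end of treatment and by -0.58 ± 0.16 at 9 days. The epicardial gene tbx18 fell at the same times, by -0.69 ± 0.18 and -0.73 ± 0.18. The gene tbx2a fell at the end of treatment (-0.49 ± 0.17) and at 2 days (-0.56 ± 0.17), while tbx2b and tbx1 passed at no time against control.

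**Figure D2:**
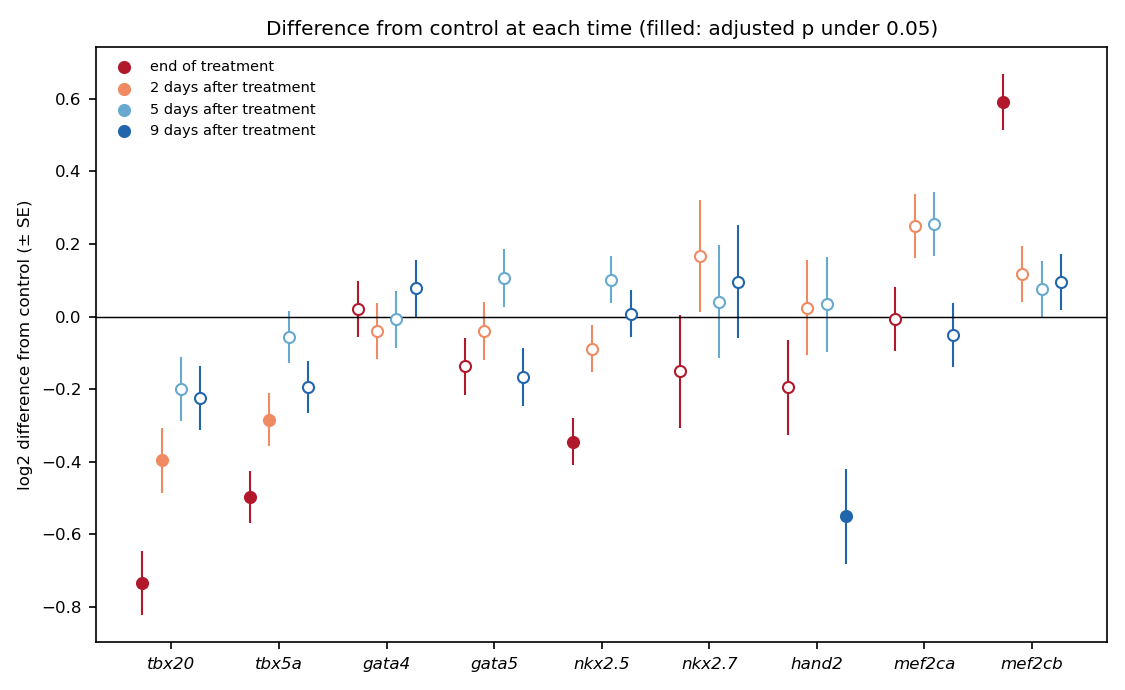
Log2 difference from control (vertical axis, limma estimate ± SE) of the 9 genes (horizontal axis) in the 4 treated groups; filled points passed an adjusted p of 0.05 and open points did not. Filled points lie below 0 for tbx20, tbx5a and nkx2.5 at the end of treatment, for tbx20 and tbx5a at 2 days and for hand2 at 9 days, and above 0 for mef2cb at the end of treatment.

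The homeodomain gene nkx2.5 was lower than control at the end of treatment and passed at no later time. Nkx2.5 and Nkx2.7 act together in the zebrafish embryo to keep the ventricle ventricular. The gene nkx2.5 (cluster 13009794) read 10.76, 10.79 and 10.63 in the controls and 10.34, 10.39 and 10.41 at the end of treatment. It read 10.67, 10.62 and 10.63 at 2 days, 10.85, 10.81 and 10.82 at 5 days, and 10.85, 10.67 and 10.68 at 9 days. The end of treatment arrays lay below all other arrays, and the 5 day arrays lay just above all controls. The fall at the end of treatment was -0.34 ± 0.06 (adjusted p = 0.000781, 1.27-fold lower). At 2, 5 and 9 days the differences were -0.09 ± 0.06, 0.10 ± 0.06 and 0.01 ± 0.06.

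Against the end of treatment nkx2.5 was higher at 2, 5 and 9 days, by 0.26 ± 0.06, 0.45 ± 0.06 and 0.35 ± 0.06 (adjusted p = 0.0208, adjusted p = 0.000233 and adjusted p = 0.000952 by limma). The 2 day call was lost without end of treatment replicate 1 or 2 or without 2 days replicate 1 (adjusted p between 0.0572 and 0.0812). The partner gene nkx2.7 (cluster 13249041) read between 3.51 and 4.22 on the 15 arrays, with overlap between control and each later group, and passed in none of the comparisons. Its difference at the end of treatment was -0.15 ± 0.16, with a 95% interval of -0.479 to 0.178. The related gene nkx2.3 was also dim (control mean 3.61) and passed at no time against control.

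No difference of gata4 or gata5 from control passed. Gata4 is a zinc finger protein whose regulatory sequences become active in zebrafish heart muscle that regrows after injury. The gene gata4 (cluster 13106701) read 12.38, 12.35 and 12.44 in the controls and 12.42, 12.43 and 12.38 at the end of treatment. It read 12.23, 12.35 and 12.47 at 2 days, 12.51, 12.37 and 12.27 at 5 days, and 12.54, 12.31 and 12.55 at 9 days, so each group overlapped control. The difference at the end of treatment was 0.02 ± 0.08, with a 95% interval of -0.143 to 0.185 and adjusted p = 0.897 by limma. The intervals at 2, 5 and 9 days were -0.204 to 0.124, -0.172 to 0.156 and -0.087 to 0.242. Each of the 4 intervals leaves out a fall as large as that of nkx2.5 at the end of treatment. On the scale centred on heart muscle cell markers, given further on, gata4 passed as higher there, by 0.23 ± 0.08. On that scale the median of all genes was 0.22 and 29.2% of them were called higher.

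Gata5, known from the faust mutant, is needed for heart and endoderm to form and is made in endocardium as well as muscle. The gene gata5 (cluster 13131678) read 10.33, 10.30 and 10.26 in the controls, 10.06, 10.29 and 10.13 at the end of treatment, and 10.36, 10.10 and 10.33 at 2 days. It read 10.44, 10.42 and 10.36 at 5 days and 10.22, 10.06 and 10.13 at 9 days. The 5 day arrays lay above all controls and the 9 day arrays below all controls. The step from 5 to 9 days was -0.27 ± 0.08 (adjusted p = 0.0536 by limma), and adjusted p = 0.0497 after cyclic loess and adjusted p = 0.0378 without the lowest-signal genes. The difference of 5 days from the end of treatment was 0.24 ± 0.08 (adjusted p = 0.0566), and passed without end of treatment replicate 2 (adjusted p = 0.0338) and without the lowest-signal genes (adjusted p = 0.0402).

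The gene hand2 was lower than control at 9 days and passed at no earlier time. Hand2 is needed for enough heart muscle cells to form, and in zebrafish it is also made in the epicardium. The gene hand2 (cluster 12956576) read 9.62, 9.62 and 9.21 in the controls, 9.30, 9.40 and 9.16 at the end of treatment, and 9.50, 9.28 and 9.73 at 2 days. It read 9.42, 9.58 and 9.55 at 5 days and 9.15, 8.91 and 8.74 at 9 days. The 9 day arrays were the lowest 3 of the 15, and the other groups overlapped control. The fall against control was -0.55 ± 0.13 (adjusted p = 0.0171, 1.46-fold lower), and against 5 days it was -0.58 ± 0.13 (adjusted p = 0.0137). From 5 to 9 days 2 members were lower and 0 higher, against 3.25% and 2.87% of all genes.

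Both hand2 calls depended on single arrays. The call against control was lost without control replicate 1 or 2 or without 9 days replicate 2 or 3, with adjusted p between 0.0529 and 0.0872. It was also lost when every transcript cluster was tested (adjusted p = 0.0665) and when arrays were centred on heart muscle cell markers (adjusted p = 0.0544). With the red cell score, given further on, as a covariate it was lost too (adjusted p = 0.19). In that fit the SE was 1.43 times as large for the same residual variance. The call against 5 days was lost without 5 days replicate 2 or 3 or 9 days replicate 3 (adjusted p between 0.052 and 0.0691). Testing every transcript cluster also lost it (adjusted p = 0.0591). Against the end of treatment the 9 day difference was -0.35 ± 0.13 (adjusted p = 0.071), and it passed without 9 days replicate 1 (adjusted p = 0.0317).

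Markers of epicardium, fibroblasts and smooth muscle were also lower at 9 days. Of 15 epicardial and fibroblast markers 5 fell and 0 rose at 9 days, namely tbx18, tcf21 (-0.67 ± 0.17), aldh1a2, col1a1a and col5a1. The list's score, the median log2 difference of its genes on an array from their control means, was -0.533 to -0.215 at 9 days and -0.229 to 0.171 in control. Of 8 smooth muscle markers 3 fell and 0 rose, acta2 (-0.83 ± 0.23), myh11a and cnn1b, with scores of -0.846 to -0.112 against -0.123 to 0.176. Of all genes 3.3% fell and 4.24% rose at 9 days. On the scale centred on heart muscle cell markers 1 of the 15 and 2 of the 8 fell, against 1.53% of all genes. At 5 days smooth muscle scores were also low, at -0.696 to -0.299, while epicardial and fibroblast scores, at -0.293 to 0.039, overlapped control. There hand2 differed from control by 0.03 ± 0.13. The part of these cells in the lower hand2 value was not tested.

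Of the mef2c paralogues, mef2cb rose at the end of treatment, whereas mef2ca differed by -0.01 there. Mef2c switches on genes of the contractile fibres, and in the zebrafish embryo mef2ca and mef2cb can stand in for each other in forming heart muscle. The gene mef2cb (cluster 13207638) read 8.61, 8.47 and 8.41 in the controls and 9.05, 9.12 and 9.10 at the end of treatment. It read 8.51, 8.66 and 8.68 at 2 days, 8.56, 8.63 and 8.54 at 5 days, and 8.51, 8.63 and 8.64 at 9 days. The end of treatment arrays were the highest 3 of the 15, and the later groups overlapped control and each other. The rise was 0.59 ± 0.08 (adjusted p = 2.62e-05, 1.51-fold). Against the end of treatment mef2cb was lower by -0.47 ± 0.08 at 2 days, -0.51 ± 0.08 at 5 days and -0.50 ± 0.08 at 9 days (adjusted p = 0.000876, adjusted p = 0.000299 and adjusted p = 0.000214 by limma).

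The gene mef2ca (cluster 12971168) read 9.86, 9.75 and 9.64 in the controls, 9.90, 9.71 and 9.62 at the end of treatment, and 10.03, 9.91 and 10.06 at 2 days. It read 9.93, 10.13 and 9.95 at 5 days and 9.71, 9.79 and 9.60 at 9 days. The arrays of 2 and 5 days lay above all others. The differences from control were -0.01 ± 0.09, 0.25 ± 0.09, 0.25 ± 0.09 and -0.05 ± 0.09 in order of time, and none passed. The step from 5 to 9 days was -0.31 ± 0.09 at adjusted p = 0.0497 by limma. That call was lost with any of the 6 arrays of 5 and 9 days left out, with adjusted p between 0.0534 and 0.191, and held in 4 of 18 alternatives in all. With the replicate block it was adjusted p = 0.0508. Without end of treatment replicate 1, mef2ca passed as higher at 2 and 5 days than at the end of treatment (adjusted p = 0.0422 and adjusted p = 0.0277).

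Within each array the log2 value of mef2cb minus that of mef2ca was -1.24, -1.28 and -1.23 in the controls and -0.85, -0.59 and -0.52 at the end of treatment. It was -1.52, -1.25 and -1.38 at 2 days, -1.37, -1.5 and -1.41 at 5 days, and -1.20, -1.16 and -0.96 at 9 days. The end of treatment arrays had the highest 3 values of the 15. The shift of the difference from control was 0.60 at the end of treatment, -0.13 at 2 days, -0.18 at 5 days and 0.15 at 9 days. The exact permutation test (2-sided, n = 3 per group) gave p = 0.1, p = 0.2, p = 0.1 and p = 0.1, of which 0.1 is the smallest this design allows, so it sets none of the 3 apart from the others. Among other Mef2 genes, mef2aa fell by -0.65 ± 0.08 at the end of treatment and -0.30 ± 0.08 at 2 days, and mef2d fell by -0.25 ± 0.08 at the end of treatment. The dim gene mef2b (control mean 4.78) passed at no time.

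Leukocyte and endothelial markers were higher at the end of treatment, as mef2cb was. Of all genes 14.6% rose there and 9.6% fell. Of 15 leukocyte markers 13 rose and 0 fell, with scores of 1.205 to 1.58 against -0.146 to 0.207 in control, and mpeg1.1, a macrophage gene, rose by 2.12 ± 0.19. Of 14 endothelial and endocardial markers 8 rose and 2 fell, with scores of 0.288 to 0.341 against -0.067 to 0.020, among them esama (0.81 ± 0.07) and sox18 (0.99 ± 0.09). Of the leukocyte markers 11, 11 and 12 were still higher at 2, 5 and 9 days, with scores of 0.597 to 0.926, 0.737 to 0.816 and 0.742 to 0.827. Of the endothelial and endocardial markers 5, 3 and 1 were higher and 1, 1 and 0 lower at these times. Their scores were 0.179 to 0.212, 0.067 to 0.201 and 0.070 to 0.184. At the same times mef2cb differed from control by 0.12 ± 0.08, 0.08 ± 0.08 and 0.09 ± 0.08. Of all genes 7.62% were higher at 2 days and 4.24% at 9 days, and 6.37% were called in either direction at 5 days. The part of leukocytes and endothelium in the rise of mef2cb was not tested.

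**Figure D3:**
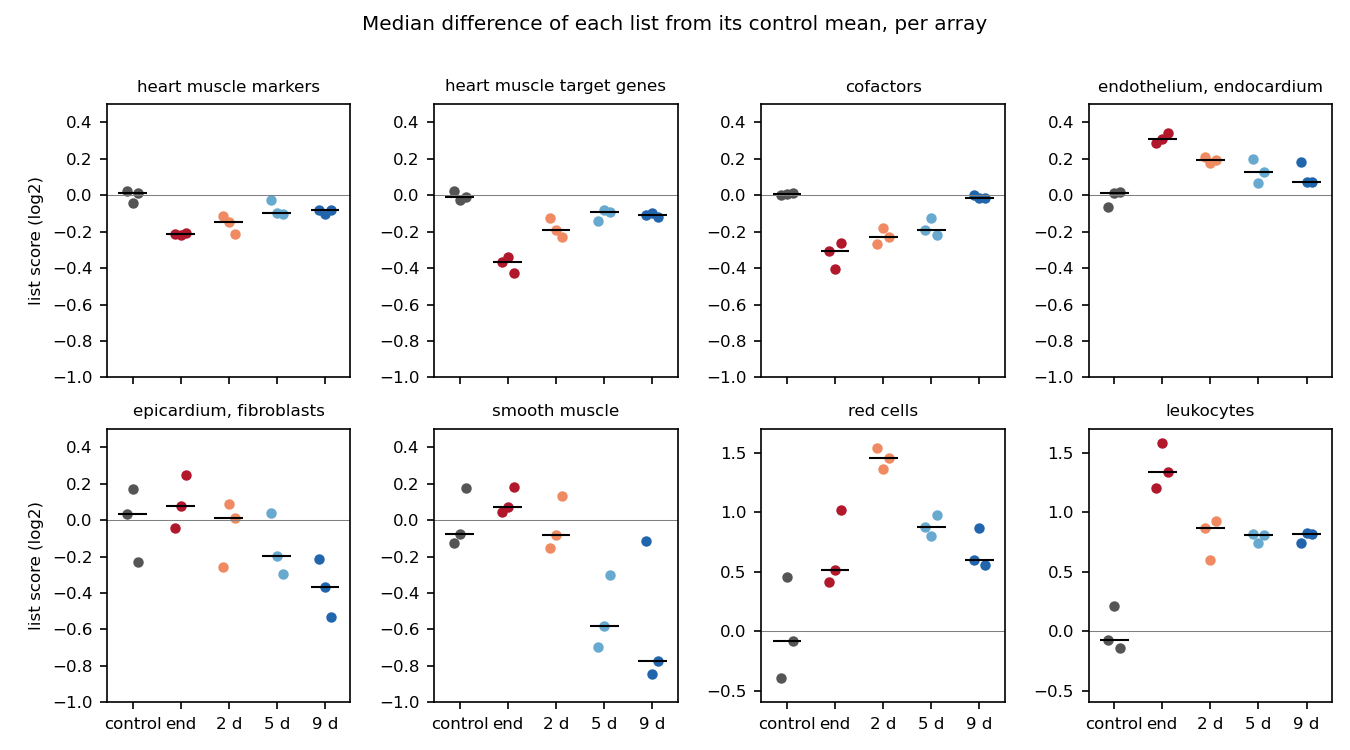
List score per array (vertical axis, median log2 difference of a list's genes from their control mean) for 8 gene lists, by group (horizontal axis); points are arrays and bars are medians of 3 arrays, and the red cell and leukocyte panels have a wider axis. Heart muscle markers lie at -0.22 to -0.205 at the end of treatment, leukocyte markers at 1.205 to 1.58, and smooth muscle markers are low at 5 and 9 days.

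Heart muscle cell markers were slightly lower at the end of treatment, beside the falls of tbx20, tbx5a and nkx2.5. Of 12 such markers 7 fell, among them actn2b (-0.41 ± 0.06) and mybpc3 (-0.39 ± 0.06), and 2 rose, nppa and nppb. Of all genes 9.6% fell and 14.6% rose. The scores of the markers were -0.22 to -0.205 against -0.044 to 0.022 in control. When each array was centred on this score, the falls of tbx20 and tbx5a remained, at -0.53 ± 0.09 (adjusted p = 0.000316) and -0.29 ± 0.07 (adjusted p = 0.00474). That of nkx2.5 was -0.14 ± 0.07 and no longer passed (adjusted p = 0.162), mef2cb rose by 0.80 ± 0.09, and gata4 passed as higher, by 0.23 ± 0.08 (adjusted p = 0.0376). With such centring 2 members were higher and 2 lower at the end of treatment, against 29.2% and 4.09% of all genes, whose median was 0.22 instead of 0.01. All 12 markers are also on the list of target genes given further on. With this score, a smaller heart muscle share and less RNA of target genes cannot be told apart. The part of the heart muscle share in the falls was not tested.

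At 2 days the same centring changed which members were called. The members tbx20 (-0.24 ± 0.09, adjusted p = 0.0855) and tbx5a (-0.13 ± 0.07, adjusted p = 0.232) no longer passed. The genes mef2ca (0.40 ± 0.10, adjusted p = 0.00803) and mef2cb (0.27 ± 0.09, adjusted p = 0.0387) passed as higher on that scale. Thus 2 members were higher and 0 lower, against 16.3% and 1.54% of all genes, whose median was 0.168. The centring moved genes in general upward, so these 2 rises are not read as a result about the members. Red cell markers were at their highest at 2 days, with 9 of 12 risen and 0 fallen and scores of 1.36 to 1.539 against -0.392 to 0.452 in control. Of all genes 7.62% rose and 4.15% fell at 2 days. With the red cell score as a covariate (the blood covariate), limma called 0 members and 0.192% of all genes at 2 days. There tbx20 differed by -0.10 (adjusted p = 0.91) and tbx5a by 0.02 (adjusted p = 0.981). The score is of RNA and does not measure the amount of blood in the ventricle. In that fit the SE was 2.41 times as large for the same residual variance. At the end of treatment, where the factor was 1.4, the 4 calls held, and 14.8% of all genes were called.

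Comparisons of the later groups with the end of treatment share its 3 arrays. The same arrays gave the end of treatment differences from control, so these comparisons are not independent of those differences. At 2 days 2 members were higher and 1 lower than at the end of treatment, against 3.52% and 4.45% of all genes. At 5 days 3 were higher and 1 lower, with 4.34% and 8.01% of genes, and at 9 days again 3 and 1, with 7.38% and 11.6%. The 3 higher members at 5 and 9 days were tbx20, tbx5a and nkx2.5, and the lower one was mef2cb. On the scale centred on heart muscle cell markers the 2 day calls of tbx20 (0.28 ± 0.09, adjusted p = 0.0752) and nkx2.5 (0.20 ± 0.07, adjusted p = 0.104) were lost, leaving 0 higher and 1 lower, against 2.39% and 5.39% of all genes. There tbx5a did not pass at 9 days (0.18 ± 0.07, adjusted p = 0.0842), while hand2 was lower (-0.48 ± 0.14, adjusted p = 0.0227). On that scale 3.88% of all genes were higher and 17.9% lower at 9 days, with a median of -0.123. The centring moved genes in general downward in this comparison, so the hand2 call is not read as a result about the members. Between 2 and 5 days limma called 0 members (3 at an unadjusted p under 0.05), and 0.187% of all genes.

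The members were also compared with each other across arrays. Over the 15 arrays Pearson's r was 0.90 between tbx20 and tbx5a, 0.80 between tbx20 and nkx2.5 and 0.79 between tbx5a and nkx2.5. The gene mef2cb had r = -0.85, -0.84 and -0.85 with these 3. After the group means were removed the same pairs had r = 0.36, 0.18 and -0.20, and r = -0.13, -0.20 and -0.17. The pooled values therefore mostly carry the differences between groups. Another set, gata5, hand2 and mef2ca, had r = 0.73 for gata5 with hand2, 0.68 for hand2 with mef2ca and 0.50 for gata5 with mef2ca, and 0.58, 0.61 and 0.08 within groups. These are descriptions over arrays that share normalisation and pools, and over all 36 pairs r ranged from -0.85 to 0.90 with a median of 0.19. Within groups it ranged from -0.40 to 0.69 with a median of 0.12. The highest within groups was tbx20 with mef2ca (0.69, and 0.16 over the 15 arrays). For nkx2.5 with hand2 r was 0.63 within groups and 0.20 over the 15 arrays.

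**Figure D4:**
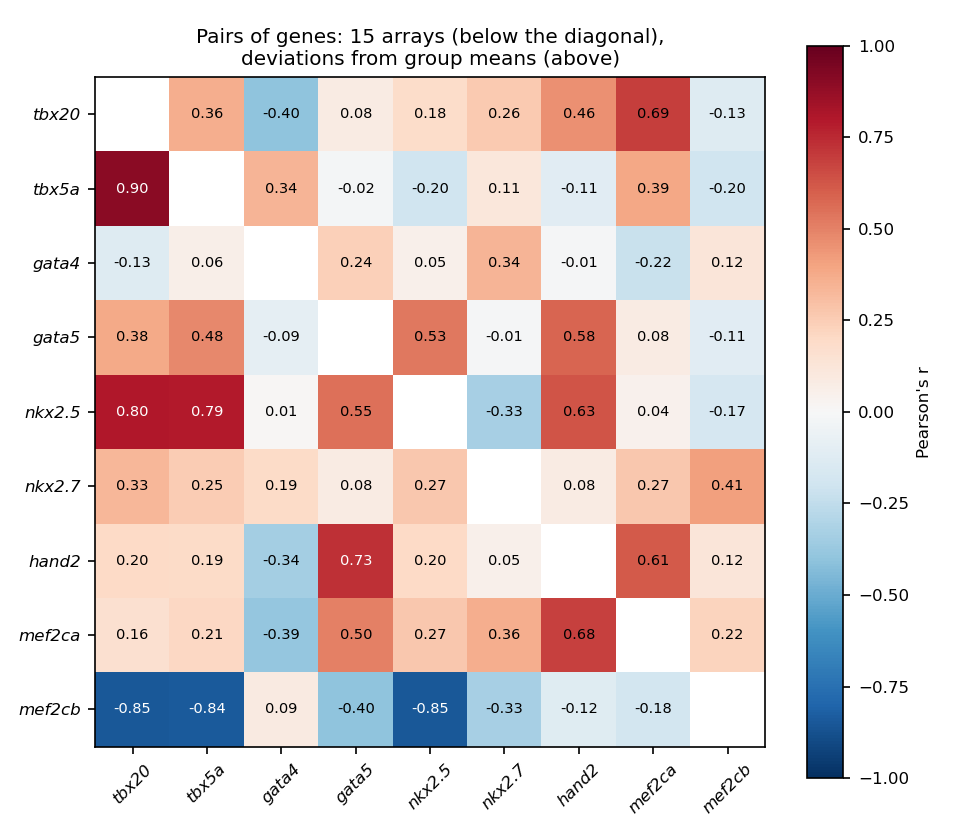
Pearson's r for each of the 36 pairs of genes, below the diagonal over the 15 arrays and above it over deviations from the group means; both axes list the genes and colour runs from -1 (blue) to 1 (red). Below the diagonal tbx20, tbx5a and nkx2.5 have r of 0.79 to 0.90 with each other and -0.85 to -0.84 with mef2cb, and above it the same pairs lie between -0.20 and 0.36.

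For each member called by the F test, the genes with the most similar pattern over the 15 arrays were listed. They were picked from all genes for their high r, so that r is a description only. After the group means were removed, r for the genes listed here and in the next paragraph was lower, at 0.43 to 0.87. For tbx20 they were ednrab, an endothelin receptor gene (r = 0.958), klhl23 (r = 0.957) and calcrl2, a calcitonin receptor relative (r = 0.957). For tbx5a they were myh14, a non-muscle myosin gene (r = 0.952), prkag2a, a subunit of the energy sensor AMPK (r = 0.947), and fars2 (r = 0.943). For nkx2.5 they were rbp4, a retinol carrier gene (r = 0.93), spag7 (r = 0.929) and glud1b, a glutamate dehydrogenase gene (r = 0.928). Of these, klhl23 had group means of 8.79 in control, 7.25 at the end of treatment, and 8.02, 8.39 and 8.44 at 2, 5 and 9 days.

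The genes most like mef2cb were vldlr, a lipoprotein receptor gene (r = 0.969), serpini1, a protease inhibitor gene (r = 0.96), and the glucose transporter gene slc2a3a (r = 0.956). Their end of treatment means were 8.40, 8.87 and 7.98, against 6.80, 5.58 and 3.36 in control, so each moved further than mef2cb did. For hand2 they were the mitochondrial translation factor gene tsfm (r = 0.907), prkcsh (r = 0.904) and fahd1 (r = 0.901), of which prkcsh had means of 7.17 in control and 6.42 at 9 days. For mef2ca they were mtm1 (r = 0.879), ccdc126 (r = 0.866) and usp4 (r = 0.866).

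Other transcription factors of the heart also tended to be lower at the end of treatment. Of 52 such genes measured 17 fell and 3 rose, against 9.6% and 14.6% of all genes. Their median was -0.10, against 0.01 over all genes. On the scale centred on heart muscle cell markers 10 fell and 5 rose, against 4.09% and 29.2% of all genes. The zinc finger gene casz1, needed for heart muscle growth in mice, fell by -1.16 ± 0.10. The Iroquois homeobox genes irx2a and irx1a fell by -0.99 ± 0.11 and -0.83 ± 0.15, whereas irx5a of the same family rose by 0.79 ± 0.13. Falls were also seen for the serum response factor gene srfb (-0.77 ± 0.12), esrrga, a receptor that drives energy metabolism genes (-0.75 ± 0.08), the Hippo pathway partner gene tead3a (-0.70 ± 0.09) and pbx4, a homeodomain partner gene (-0.48 ± 0.08). The Notch effector gene hey2, known for the ventricle and for vessels, rose by 1.05 ± 0.18.

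At 2 days 11 of the 52 were lower and 2 higher, against 4.15% and 7.62% of all genes. On the scale centred on heart muscle cell markers the counts were 3 and 3, against 1.54% and 16.3% of all genes. At 5 days 3 were lower and 2 higher, with 6.37% of all genes called in either direction. At 9 days 4 were lower and 0 higher, against 3.3% and 4.24% of all genes. The 4 were tbx3a, tbx18 (also in the epicardial list), irx1a (-0.79 ± 0.15) and irx2a (-0.61 ± 0.11). The genes hey2 and irx5a remained higher at 5 days, by 0.81 ± 0.18 and 0.74 ± 0.13, and differed by 0.08 ± 0.18 and 0.07 ± 0.13 at 9 days. Against the end of treatment 8, 10 and 11 of the 52 were higher at 2, 5 and 9 days, and 0, 0 and 3 were lower. Of all genes 3.52%, 4.34% and 7.38% were higher and 4.45%, 8.01% and 11.6% lower. With the same centring 5, 5 and 8 were higher and 0, 1 and 3 lower. There 2.39%, 2.23% and 3.88% of all genes were higher and 5.39%, 15.6% and 17.9% lower.

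**Figure D5:**
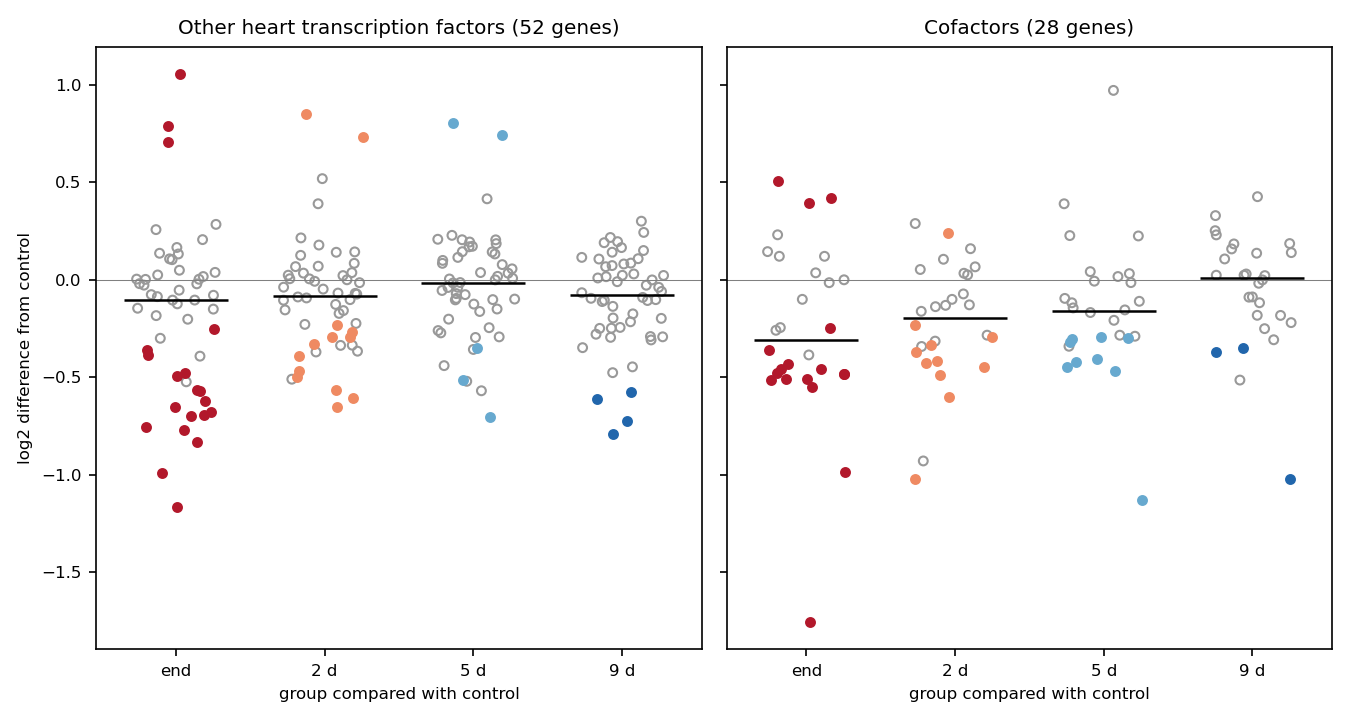
Log2 difference from control (vertical axis) of 52 other heart transcription factor genes (left) and 28 cofactor genes (right) in each treated group (horizontal axis); filled points passed an adjusted p of 0.05, open points did not, and bars are medians. At the end of treatment the medians are -0.10 and -0.31, and at 9 days -0.08 and 0.01.

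Cofactors that bind the members or act with them were lower more than higher. Of 28 measured 14 fell and 3 rose at the end of treatment, against 9.6% and 14.6% of all genes, with a median of -0.31. The gene tbx5b is on this list and on that of other heart transcription factors, so its falls are counted in both. On the scale centred on heart muscle cell markers 7 fell and 6 rose, against 4.09% and 29.2% of all genes. The acetyltransferase genes ep300a and crebbpb fell by -0.51 ± 0.08 and -0.51 ± 0.09, and mrtfba and mrtfbb, coactivators of serum response factor, by -0.51 ± 0.08 and -0.48 ± 0.07. The LIM protein genes fhl2b and fhl2a fell further, by -1.75 and -0.99. Partners of the GATA proteins went both ways, with zfpm1 and zfpm2a at -0.48 and zfpm2b at 0.42. At 2, 5 and 9 days 10, 9 and 3 cofactors were lower and 1, 0 and 0 higher. Of all genes 4.15% were lower and 7.62% higher at 2 days, and 3.3% and 4.24% at 9 days. At 5 days 6.37% of all genes were called in either direction. The gene fhl2a was still lower at 9 days, by -1.02. With the same centring 4, 4 and 1 cofactors were lower and 2, 2 and 2 higher. There 1.54%, 1.24% and 1.53% of all genes were lower and 16.3%, 5.32% and 6.87% higher.

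Genes known as targets of these factors were more often lower than higher in the anaemic ventricle. Of 38 measured, which include all 12 heart muscle cell markers, 21 fell and 4 rose at the end of treatment, with a median of -0.38. Of all genes 9.6% fell and 14.6% rose. On the scale centred on those markers 15 fell and 5 rose, against 4.09% and 29.2% of all genes. That scale is set by 12 of these 38 genes, so the smaller number of falls is partly built in. The pacemaker channel gene hcn4 fell by -2.37 ± 0.12 and the calcium exchanger gene slc8a1a by -0.85 ± 0.07. The rises were nppa (1.40 ± 0.09), nppb (2.21 ± 0.17), the connexin gene gja1b (1.76) and desma, which encodes desmin (0.27). At 2, 5 and 9 days 16, 7 and 11 targets were lower and 3, 3 and 1 higher. Of all genes 4.15% were lower and 7.62% higher at 2 days, and 3.3% and 4.24% at 9 days. At 5 days 6.37% of all genes were called in either direction. On the centred scale 5, 6 and 6 targets were lower and 5, 3 and 1 higher. There 1.54%, 1.24% and 1.53% of all genes were lower and 16.3%, 5.32% and 6.87% higher.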

How the data were processed

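The deposited log2 values come from RMA, run by the authors in the R package oligo, per the submitters' processing notes. RMA corrects background, sets all arrays to the same quantiles and reduces the probes of a cluster to 1 value by median polish. The sources used here give no versions and no genome build. The values are relative, so a change of all genes in 1 direction cannot be seen in them.

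Of 75212 transcript clusters, 20806 carried exactly 1 gene symbol in the array annotation, 855 several and 53551 none here. The cluster with the highest mean stood for a gene, giving 19260 genes. Symbols were checked by gene ID against the RefSeq table of GRCz12tu (20323 clusters matched, 1 symbol updated). The gene gata6 had no such cluster and was not analysed here.

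Limma 3.58.1 in R 4.3.3 fitted 1 mean per group over all 15 arrays with an intensity trend in the variance. The test was 2-sided, with Benjamini-Hochberg adjustment over all 19260 genes within each of the comparisons and a threshold of 0.05. Tables were joined in Python 3.11.15 with pandas 2.3.3, and plots drawn with matplotlib 3.10.9. In simulated arrays with 19260 genes, the fit of the end of treatment against control recovered 43% of 100 genes changed by 0.5 and 85% of 100 changed by 1 on the log2 scale, with 7 false calls. The simulation changed only these genes, drawn at random, whereas 4669 genes were called in the data. Its recovery is therefore not an estimate for the members. Over all genes, the SE of a difference had a median of 0.143, and for the members it was 0.065 to 0.155. The number of arrays limits the precision, and no detection values were used.

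All members, all lists and the rule for named genes were chosen with earlier results of these data known. The text names every member. From each other list it names up to 4 genes (10 for other heart transcription factors) with the smallest adjusted p at the end of treatment, and for each member called by the F test the 3 genes most correlated with it over the 15 arrays. No red cell or thrombocyte marker is named. A list of thrombocyte markers was also scored and is not described here. Other genes were named after their values were seen: the relatives of members, further genes called in a list, and the level checks. Samples with the same replicate number did not deviate together: 0 of 30 such pairs of arrays had a correlation of deviations above 0.1.

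Alternatives were median centring, cyclic loess, array weights, a robust variance, no variance trend, leaving out the lowest-signal genes, averaging the clusters of a gene, testing every transcript cluster, fitting only 6 arrays, the replicate block, a 1.5-fold minimum, the red cell score as a covariate (the blood covariate) and leaving out each array. Centring on heart muscle cell markers was added after seeing the data.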

Additional observations from a re-analysis of the deposited data

Results flagged for a closer look

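For 5 genes the difference from control was itself different between successive times, by limma's test of the step between them. The difference of tbx20 shrank by 0.34 ± 0.09 from the end of treatment to 2 days, from -0.73 to -0.40. That of nkx2.5 shrank by 0.26 ± 0.06 over the same step, from -0.34 to -0.09. That of mef2cb moved by -0.47 ± 0.08, from 0.59 to 0.12. From 5 to 9 days the difference of hand2 moved by -0.58 ± 0.13, from 0.03 to -0.55, and that of mef2ca by -0.31 ± 0.09, from 0.25 to -0.05. The step of mef2cb was called with each array left out and was -0.41 ± 0.12 with the blood covariate (adjusted p = 0.114 by limma), a fit whose SE was 1.57 times as large at the same residual variance. That of mef2ca was lost with any of its 6 arrays left out, and the other 3 with 3 or 4 of 6.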

How the results depend on the processing

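With 3 arrays per group, the precision of each comparison is limited. The counts of members called in the F test (5 to 6 in 11 alternatives) and at 5 days against control or 2 days (0 in 13 each) did not move by over 1.5 times. A 1.5-fold minimum, for which no share of all genes was counted, left 2 members at the end of treatment and 0 in each other comparison. From 5 to 9 days, where 2 were called, the count was 1 with no variance trend, array weights, median centring, heart muscle marker centring, the mean of a gene's clusters, the 6 arrays compared or the replicate block, 3 after cyclic loess or without the lowest-signal genes, and 0 with every cluster. At 9 days against control it was 0 with every cluster, heart muscle marker centring or the blood covariate. At 2 days against control it was 1 with no variance trend and 0 with the blood covariate, under which tbx5a turned to 0.018. At 2 days against the end of treatment it was 1 with no variance trend, heart muscle marker centring or every cluster, and 0 with the blood covariate. At 5 days against the end of treatment it was 6 without the lowest-signal genes, where 2551 of 12840 genes were called, against 2377 of 19260. From 5 to 9 days that fit called 1385 of 12840 genes and cyclic loess 1240 of 19260, against 1178 of 19260. With no variance trend 886 of 19260 genes were called there, and with every cluster 1008 of 75212 clusters. The causes of these changes were not tested. The fit without the lowest-signal genes tested fewer genes, and the every-cluster fit tested more clusters than the main fit had genes.

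With single arrays left out, the counts ranged from 5 to 7 for the F test, 4 to 4 at the end of treatment, 1 to 2 at 2 days, 0 to 0 at 5 days and 0 to 1 at 9 days against control. They ranged from 1 to 4, 4 to 5 and 4 to 5 at 2, 5 and 9 days against the end of treatment, 0 to 0 from 2 to 5 days and 0 to 1 from 5 to 9 days. Same-numbered arrays did not deviate together, with correlations of -0.161 to 0.098, so the numbers were not taken as pairs. The replicate block left the other 9 counts as they were, at 6 for the F test and at 4, 2, 0 and 1 against control.

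Over all genes, every transcript cluster gave 7042 calls at the end of treatment, against 4669. The blood covariate gave 37 at 2 days against 2268, 160 at 5 days against 1227, 199 at 9 days against 1452, 384 from the end of treatment to 2 days against 1536, 2843 at the end of treatment, and 0 from 2 to 5 days against 36. Heart muscle marker centring gave 3429 at 2 days and made 87.7% of end of treatment calls rises, against 60.4%. From 2 to 5 days it gave 86 calls, no variance trend 15, every transcript cluster 5, and leaving out 2 days replicate 1, 2 or 3 gave 18, 8 and 18 and 5 days replicate 2 or 3 gave 10 and 22. Leaving out 1 array also moved the counts over all genes to 1469 (without control replicate 1) and 1488 (2 days replicate 3) at 2 days, 762, 755 and 757 (control replicate 1, control replicate 3, 5 days replicate 2) at 5 days, and 890, 920 and 713 (control replicate 1, control replicate 2, 9 days replicate 3) at 9 days. It moved them to 984 (2 days replicate 1) from the end of treatment to 2 days, and to 615 and 664 (5 days replicate 3, 9 days replicate 3) from 5 to 9 days, against 1178.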
